A study of Mus musculus with 13 samples.

Results

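Oxidative phosphorylation is built from subunits encoded in both genomes of the cell, and its subunit genes were followed here in colonic epithelium of antibiotic-treated and germ-free mice. Members were chosen by name: every gene whose name starts with mt-, with Ndufa, Ndufb, Ndufc, Ndufs or Ndufv and a digit, or with Uqcr, Cox4i, Cox5, Cox6, Cox7, Cox8 or Atp5, leaving out names with -ps (1 gene, Ndufb1-ps). The rule takes 93 of 32285 genes, 13 encoded in mitochondrial DNA and 80 in the nucleus. By name, complex I has 7 mitochondrial and 37 nuclear members, complex III has 1 and 8, complex IV has 3 and 18, and complex V has 2 and 17. No measured value entered the rule. Ndufa4 is counted with complex I for its name, although its protein is known as a subunit of complex IV. Cox7a2l is counted with complex IV, and its protein is known for joining complexes III and IV into supercomplexes.

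The respiratory chain passes electrons from NADH and succinate to oxygen and pumps protons across the inner mitochondrial membrane. Complex I takes electrons from NADH, complex III passes them from ubiquinol to cytochrome c, complex IV reduces oxygen, and complex V, the ATP synthase, uses the returning protons to make ATP. The mitochondrial genome encodes core membrane subunits of these complexes, is read from both strands into long transcripts and is cut into single RNAs between the tRNAs. Nuclear subunits are transcribed one by one, translated in the cytosol and imported. In the colon, mature absorptive cells near the surface are known to oxidise butyrate made by gut microbes, while crypt base cells divide.

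Cells came from the colons of C57BL/6J mice, labelled wild type and antibiotic-treated in 1 group and germ-free in the other; both groups therefore lacked an intact microbiota. The sources used here do not name the antibiotics, the number of mice pooled or their age, and control mice were not analysed here. EPCAM+ CD45- epithelial cells were pooled by condition, and CD44+ (proliferative) and CD44- (differentiated) cells were sorted 1:1 for droplet 3' sequencing. The labels give 3 antibiotic cDNA libraries, all in batch1, and 2 germ-free cDNA libraries, all in batch2, so that condition and batch cannot be told apart.

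The deposited matrix holds 3415 antibiotic cells, with 36530277 unique molecules (UMI), and 768 germ-free cells, with 3100880. Cell names split the antibiotic cells into sets 1, 2 and 3 and the germ-free cells into sets 3 and 4, which the labels do not tie to libraries. Median UMI per cell were 6760, 6599 and 7420 in the antibiotic sets, and 1045 and 4682 in germ-free sets 3 and 4, so that germ-free set 3 stood apart as shallow. In the antibiotic sets 810 cell barcodes occurred in more than 1 set, which gives 837 shallower copies (24.5% of antibiotic cells and 3.401% of antibiotic UMI); the germ-free sets shared none with each other or with antibiotic cells. Whether the antibiotic sets are separate captures is therefore not known, so that they may be less separate than 3 replicates, and both germ-free sets come from 1 pool. Without those copies 3 nuclear members were higher and 3 lower in germ-free cells, by the limits given further on, against 3 and 4 with them. With the copies 6.72% of all ranked genes were higher and 6.28% lower, and these shares were not computed without them. No doublet caller was run, and no source used here says whether doublets were removed, so cells in more than 1 marker gate can include them. No antibiotic cell had more than 39.99% mitochondrial UMI, whereas 26 germ-free cells had over 40%. All 7 epithelial markers were detected, at 92.0 and 96.1 UMI per 10000 non-mitochondrial UMI in the antibiotic and germ-free cells, and the 10 immune markers summed to 0.0681 and 0.0754.

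Levels are UMI per 1000000 UMI (CPM), summed over the cells of a condition or cell set. Since each condition was 1 pool, no test was run: intervals are 95% and cover counting error only, not differences between mice. Higher and lower are used of a gene whose CPM differed at least 1.5-fold with both germ-free sets above, or both below, all 3 antibiotic sets (cell sets apart). A gene was ranked if its UMI over both conditions summed to 100 or more and its CPM in the higher condition reached 20. Of 6462 ranked genes, 6.72% were higher and 6.28% lower in germ-free cells. In pooled cells, a lower level per cell and fewer cells carrying the RNA cannot be told apart.

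Of the 93 members, 92 had at least 1 UMI and 86 were ranked: all 13 mitochondrial and 73 of 80 nuclear members. Those outside are mostly isoforms known from other tissues. Cox8c had 0 UMI, for which the interval reaches 0.101 CPM in the antibiotic pool and 1.19 CPM in the germ-free pool. Ndufa4l2 had 1 UMI and Cox7b2 had 2, all in antibiotic cells. The lung and smooth muscle isoform Cox4i2 had 9 and 0 UMI in antibiotic and germ-free cells, the heart and muscle isoforms Cox6a2 and Cox8b had 13 and 2, and 36 and 0, and the testis isoform Cox6b2 had 32 and 4. A gene named Atp5if1, for the inhibitor of the ATP synthase, was not among the files' names.

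Mitochondrially encoded RNAs made up a larger share of germ-free than of antibiotic epithelium. They were 13.0%, 11.7% and 12.5% of UMI in the antibiotic sets and 18.6% and 18.7% in the germ-free sets, so the sets did not overlap. The nuclear members together took 2.70%, 3.59% and 3.09% against 3.43% and 3.16%, which overlapped. Of the 13 mitochondrial members, 7 were higher and 1 was lower in germ-free cells (61.5% called, against 13.0% of all ranked genes). The median log2 ratio over the 13 was 0.61, and over all ranked genes it was 0.05.

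Among complex V genes, mt-Atp6, the proton channel subunit a of the ATP synthase, stood at 20654, 18144 and 19206 CPM in the antibiotic sets and at 49592 and 44031 CPM in the germ-free sets. Both germ-free sets lay far above the antibiotic sets, a 2.34-fold difference (interval 2.32 to 2.35). Its neighbour mt-Atp8, a small membrane subunit of the same enzyme, went the other way, with 2835, 1987 and 2424 CPM against 839 and 1129 CPM. It was 2.17-fold lower in germ-free cells (2.10 to 2.25), again with no overlap.

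Among the complex IV core subunits, mt-Co2 stood at 16824, 15269 and 16863 CPM in the antibiotic sets and, in the germ-free sets, at 26439 and 27847 CPM, 1.69-fold higher (1.68 to 1.71). The level of mt-Co3 was 21342, 19568 and 21727 CPM against 38240 and 36163 CPM, 1.74-fold higher (1.73 to 1.75). In both, every germ-free set lay above every antibiotic set. The catalytic subunit mt-Co1 did not follow: 33078, 30523 and 32610 CPM against 27310 and 33195 CPM, a ratio of 1.01 with overlapping sets. In complex III, mt-Cytb, the cytochrome b subunit, was at 13309, 13127 and 13379 CPM against 14948 and 16224 CPM. Its sets were apart, but the 1.21-fold ratio (1.2 to 1.22) was under the limit.

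The 7 complex I genes encode subunits of its membrane arm. Of these, mt-Nd1 was at 5758, 4863 and 5211 CPM against 8238 and 8174 CPM, 1.57-fold higher (1.55 to 1.59), and mt-Nd2 was at 4097, 3373 and 3418 CPM against 5107 and 5882 CPM, 1.63-fold higher (1.60 to 1.65). For mt-Nd4 the values were 7356, 6081 and 6169 CPM against 11044 and 9595 CPM, 1.53-fold higher (1.51 to 1.55). The only subunit on the light strand, mt-Nd6, had low levels of 143, 98.8 and 107 CPM against 310 and 268 CPM, 2.44-fold higher (2.26 to 2.63). All 4 separated the conditions without overlap.

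The other 3 complex I genes did not pass the limit. The values of mt-Nd3 were 957, 890 and 992 CPM against 1414 and 1414 CPM, apart at 1.49-fold (1.44 to 1.54). Those of mt-Nd4l were 1586, 1878 and 1826 CPM against 844 and 1413 CPM, apart in the downward direction at 1.34-fold (1.30 to 1.38). For mt-Nd5 the sets overlapped, with 1675, 1447 and 1467 CPM against 1442 and 1831 CPM.

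**Figure D1:**
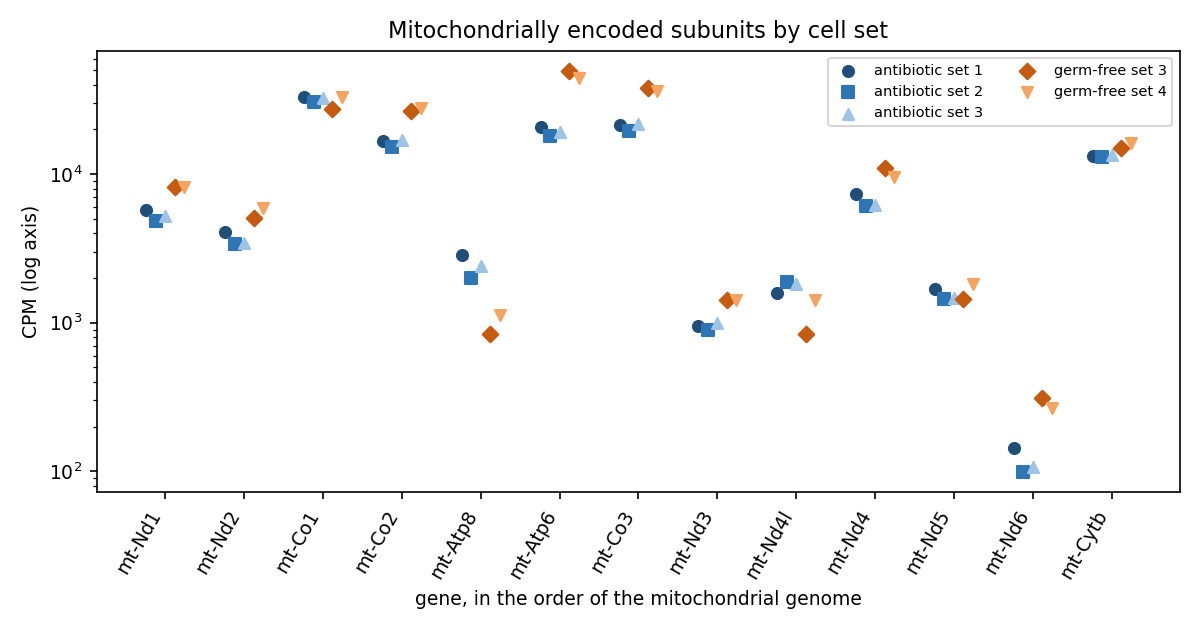
Levels of the 13 mitochondrially encoded subunits in the 5 cell sets, in CPM on a log axis, with genes in the order of the mitochondrial genome; each point is 1 cell set, coloured by condition. Both germ-free points of mt-Atp6 lie above the antibiotic points, those of mt-Atp8 and mt-Nd4l lie below, and those of mt-Co1 overlap them.

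The 2 mitochondrial genes that stood lower in germ-free sets are the small partners of the 2 bicistronic mRNAs, so that mt-Atp8 and mt-Atp6 share 1 RNA, as do mt-Nd4l and mt-Nd4. The reading frames are printed to show where the partners overlap: in the mm10 annotation (GENCODE vM21) mt-Atp8 spans chrM:7766-7969 and mt-Atp6 chrM:7927-8607, both on the plus strand and both a single coding exon. Capitals mark the 43 bases that mt-Atp8 shares with mt-Atp6, and the 7 bases that the last 60 bases of mt-Nd4l, chrM:10114-10173, share with mt-Nd4 (chrM:10167-11544).
mt-Atp8: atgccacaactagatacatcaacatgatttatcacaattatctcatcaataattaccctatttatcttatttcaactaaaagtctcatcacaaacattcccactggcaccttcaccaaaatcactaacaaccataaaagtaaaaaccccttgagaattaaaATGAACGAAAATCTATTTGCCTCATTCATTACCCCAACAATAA
mt-Nd4l, last 60 bases: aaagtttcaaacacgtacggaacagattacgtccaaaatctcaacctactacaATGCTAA
A read inside the capitals belongs to both genes, and how such reads were assigned is not known here.

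Set against their partners, both small genes separated the conditions in every cell set. UMI of mt-Atp8 came to 13.7%, 10.95% and 12.6% of those of mt-Atp6 in the antibiotic sets, and to 1.69% and 2.56% in the germ-free sets. UMI of mt-Nd4l came to 21.6%, 30.9% and 29.6% of those of mt-Nd4, against 7.64% and 14.7%. These are ratios of UMI between neighbouring genes read from the same strand, and a 3' assay does not capture both equally, so only their change between cells is compared. The same direction was found in all 4 gates compared: in cells selected by colonocyte, goblet, stem and cycling markers (described further on), mt-Atp8 was 11.7%, 13.7%, 14.0% and 15.2% of mt-Atp6 in antibiotic cells and 2.41%, 2.37%, 2.74% and 2.62% in germ-free cells. The corresponding shares for mt-Nd4l were 28.4%, 30.1%, 27.2% and 29.4% against 14.0%, 12.2%, 14.0% and 13.4%. Condition and batch coincide, and the part of library preparation or counting in these ratios was not tested.

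The pair mt-Nd6 and mt-Nd5 overlaps by 14 bases on opposite strands. UMI of mt-Nd6 came to 8.53%, 6.83% and 7.30% of those of mt-Nd5 in the antibiotic sets and 21.5% and 14.6% in the germ-free sets. No source used here says whether counting used strand, so reads of this overlap cannot be told apart if it did not. The core subunits of complex IV also shifted against each other: UMI of mt-Co1 were 197%, 200% and 193% of those of mt-Co2 in the antibiotic sets, and 103% and 119% in the germ-free sets.

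**Figure D2:**
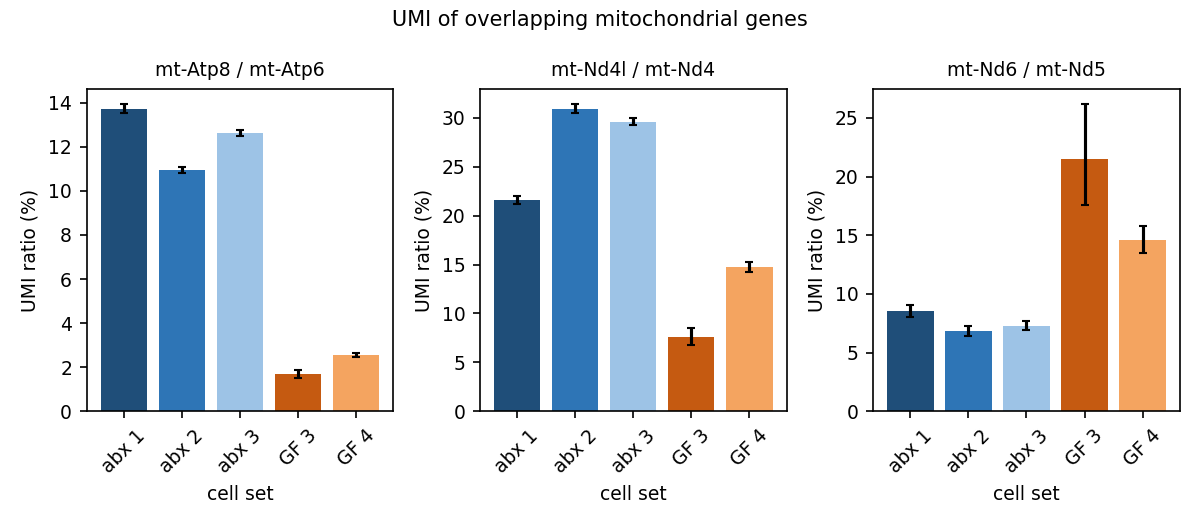
UMI of one mitochondrial gene as a percentage of those of another, for each antibiotic (abx 1 to 3) and germ-free (GF 3 and 4) cell set; bars start at 0 and the error bars are 95% counting intervals. The mt-Atp8 to mt-Atp6 bars stand at 10.95% to 13.7% in antibiotic sets and at 1.69% and 2.56% in germ-free sets.

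The nuclear members kept a median ratio close to that of all genes in the summed cells, and single subunits moved in both directions. Of 73 ranked nuclear members, 3 were higher and 4 lower in germ-free cells (9.59%, against 13.0% of all ranked genes). Their log2 ratios ran from -1.02 to 0.83 with a median of 0.03, and 39 lay above 0 and 34 below. Cell sets were apart for 28 of them (38.4%), against 53.9% of all ranked genes. Median log2 ratios were 0.05 for complex I (36 genes), -0.13 for complex III (8), -0.08 for complex IV (12) and 0.14 for complex V (17). When each cell counted equally instead of each UMI, the median over the 73 was 0.31 (0.03 over all genes), with 20 higher and 1 lower. With cells thinned to 1000 UMI it was 0.35 (-0.01 over all genes), with 21 higher and 0 lower. Single sets mattered too. Without antibiotic set 2 the counts were 6 higher and 2 lower. Without germ-free set 4 they were 14 higher and 13 lower. That leaves only the shallow set, and separation is easier to reach with a single germ-free set. The shares of all genes past the limit were not computed under these settings. The deep antibiotic cells, among them the colonocytes with a median of 13653 UMI, weigh most in the sums.

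In complex I, Ndufa4 (chr6:11900292-11907497) had 227, 282 and 225 CPM in the antibiotic sets, against 663 and 403 CPM, 1.79-fold higher (1.69 to 1.89). Levels of Ndufc2, a membrane arm subunit (chr7:97400003-97407802), were 160, 211 and 178 CPM against 442 and 255 CPM, 1.51-fold higher (1.40 to 1.62). Both germ-free sets exceeded all antibiotic sets for these genes, and the shallow set 3 was the higher of the germ-free sets. Ndufa3, an accessory subunit (chr7:3617373-3620327), was at 308, 431 and 386 CPM against 154 and 193 CPM, 2.04-fold lower (1.88 to 2.22) with no overlap. It overlaps Tfpt on the opposite strand, so without strand use their reads cannot be told apart. The most abundant nuclear complex I genes by the naming rule moved less: Ndufb9 from 476 to 551 CPM, with overlapping sets, Ndufa6 from 473 to 556 CPM, with sets apart, and Ndufa1 from 418 to 338 CPM, with overlapping sets. Ndufv3, from 292 to 229 CPM, had sets apart and did not reach the limit.

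No nuclear complex III member reached the limit in either direction. Uqcrh, the hinge subunit, stood at 551, 759 and 631 CPM against 821 and 864 CPM, with sets apart at 1.31-fold (1.26 to 1.36). The core subunit Uqcrc1 stood at 165, 222 and 199 CPM against 62.0 and 160 CPM, with sets apart in the downward direction at 1.36-fold (1.23 to 1.5). The Rieske iron-sulfur protein Uqcrfs1 went from 244 to 314 CPM with sets apart. Uqcrb was at 767 and 779 CPM, Uqcrq at 600 and 495 CPM and Uqcr11 at 528 and 399 CPM, all with overlapping sets.

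In complex IV, Cox7a2l (chr17:83501918-83517330) had 135, 161 and 136 CPM against 251 and 234 CPM, 1.64-fold higher (1.52 to 1.78). Its relative Cox7a1, the heart and muscle form of subunit VIIa (chr7:30184144-30186078), had 85.3, 128 and 121 CPM against 67.0 and 73.4 CPM, 1.60-fold lower (1.40 to 1.84). Sets of both genes did not overlap. The Cox7a1 call ended when each cell counted equally (log2 ratio -0.28) or cells were thinned (-0.39), while the Cox7a2l ratios (0.90 and 1.00) stayed past 1.5-fold. Cox5a, which carries no call, had 734, 940 and 800 CPM against 1690 and 1139 CPM, apart at 1.45-fold (1.41 to 1.5), and Cox6a1 had 713, 888 and 783 CPM against 603 and 580 CPM, apart in the downward direction at 1.38-fold (1.31 to 1.44). The 3 most abundant nuclear subunits of the complex had overlapping sets: Cox4i1 at 1533 and 1606 CPM, Cox7c at 1479 and 1426 CPM and Cox6c at 1437 and 1337 CPM.

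In complex V, 2 small subunits were lower in germ-free cells. Atp5k, the membrane subunit e (chr5:108433244-108434448), had 468, 699 and 598 CPM against 399 and 391 CPM, 1.54-fold lower (1.45 to 1.63). Atp5e, the epsilon subunit of the F1 stalk (chr2:174461072-174464105), had 561, 830 and 714 CPM against 491 and 475 CPM, 1.51-fold lower (1.43 to 1.59). The antibiotic and germ-free sets did not overlap for either gene. Both calls ended when each cell counted equally or cells were thinned, with log2 ratios of -0.29 and -0.28 for Atp5k and -0.34 and -0.39 for Atp5e. The catalytic beta subunit Atp5b went from 622 to 804 CPM and its partner alpha subunit, Atp5a1, from 511 to 661 CPM, both with sets apart and under the limit. Atp5f1, a subunit of the peripheral stalk, had 313, 374 and 299 CPM against 618 and 440 CPM, apart at 1.42-fold (1.34 to 1.5). Atp5l went from 551 to 675 CPM with sets apart, and Atp5j2 from 814 to 660 CPM with overlapping sets.

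**Figure D3:**
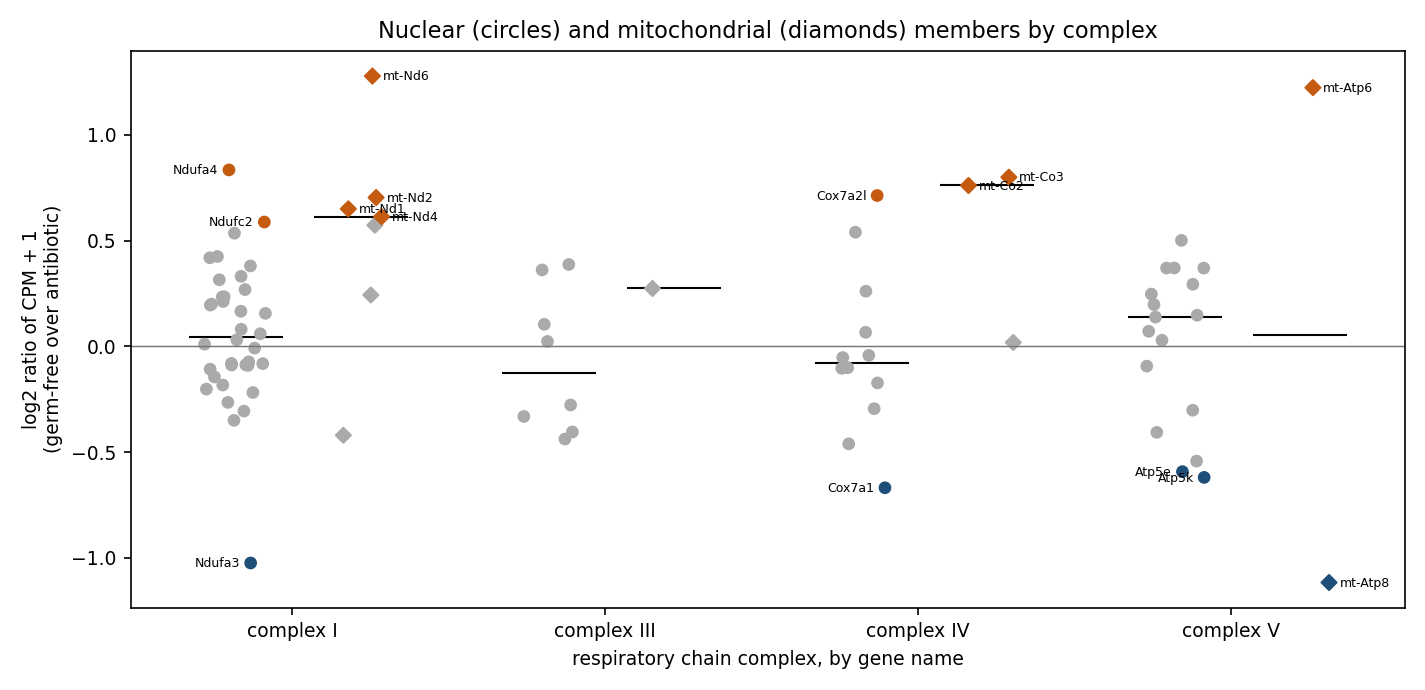
Log2 ratio of CPM + 1, germ-free over antibiotic, for the 86 ranked members by complex; circles are nuclear and diamonds mitochondrial genes, orange marks higher, blue lower and grey no call, and black lines are the medians of the nuclear and of the mitochondrial members of a complex. The mitochondrial diamonds reach from -1.12 to 1.28, and the nuclear medians lie between -0.13 and 0.14.

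The ratio of mitochondrial to nuclear UMI within each complex shows the contrast between the genomes. Over all members it was 4.79, 3.26 and 4.06 for antibiotic sets, against 5.41 and 5.93, so the sets were apart. Complex V differed most among the 4 complexes, with 2.996, 1.95 and 2.47 against 4.98 and 5.04. Complex I went from 2.46 to 3.43 and complex IV from 6.35 to 8.95, both with sets apart. Complex III, with 4.03, 3.01 and 3.64 against 3.80 and 4.41, overlapped. Read per cell instead of per UMI, the complex III difference turned: its log2 value of 0.32 became -0.07, and with thinned cells -0.16. The corresponding values were 0.48, 0.11 and 0.02 for complex I and 0.50, 0.13 and 0.06 for complex IV, whereas complex V moved from 1.08 to 0.68 with thinned cells.

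The direction over all members also differed with cell depth. In cells under 1000 UMI (524 antibiotic and 143 germ-free cells) the ratio was 8.04 and 11.5, and at 1000 to 3000 UMI (576 and 250 cells) it was 5.16 and 7.71. At 3000 to 10000 UMI (1024 and 315 cells) antibiotic cells had 14.98 and germ-free cells 7.08, the opposite order, and at 10000 UMI or more (1291 and 60 cells) it was 3.04 and 3.12. The median mitochondrial share of a cell's UMI, by contrast, was above the antibiotic value in germ-free cells in each bin, at 11.4% and 25.8%, 10.8% and 20.1%, 16.3% and 20.6%, and 11.03% and 12.1%.

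Cells were then gated by markers that include no member: a cell entered a gate when the summed UMI of its markers per 10000 non-mitochondrial UMI reached a set limit and it had at least 3 such UMI. The limits were 150 for absorptive colonocytes (Car1, Slc26a3, Aqp8 and others), 100 for goblet cells (Muc2, Zg16 and others) and for deep crypt secretory cells (Reg4, Retnlb and others) and 15 for stem and crypt base cells (Lgr5, Ascl2, Smoc2 and others) and for cycling cells (Mki67, Top2a and others). Gates are ranges of a score and not cell types, and they overlap: 85 cells were both stem- and cycling-gated, 40 both goblet- and stem-gated, and 67 of the 73 deep crypt secretory cells also goblet-gated. The gates held 1033 (colonocyte), 214 (goblet), 351 (stem) and 247 (cycling) cells, and 302, 52, 211 and 91 cells, in the same order, lay within 1.2-fold of the limit on either side. No gate took 2452 cells, and the enteroendocrine and tuft gates held 8 and 12 cells, too few to compare.

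In antibiotic cells nuclear subunits were far lower in stem- and cycling-gated cells than in colonocyte-gated cells, while mitochondrial RNAs were not. Counted by the same limit, with the 3 sets of a gate all below the 3 colonocyte sets, 72 of 73 nuclear members were lower in stem-gated cells (background 24.9% of genes) and 69 of 73 in cycling-gated cells (background 22.1%). Median log2 ratios were -2.08 and -1.40, against 0.55 and 0.52 over all genes. By complex the stem medians were -1.96 for I, -2.12 for III, -2.51 for IV and -1.99 for V. Cox5a, for example, had 1445 CPM in colonocyte-gated and 172 CPM in stem-gated antibiotic cells, and Cox4i1 had 2561 and 446 CPM. No mitochondrial member was lower in either gate, and 7 were higher in stem-gated cells (background 47.8%) and 5 in cycling-gated cells (background 45.3%). In goblet-gated antibiotic cells, 57 of 73 nuclear members were lower (background 22.1%), with a median of -0.86.

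In germ-free cells the medians of the same contrast lay closer to 0. Here 47 nuclear members were lower in stem-gated than in colonocyte-gated cells (background 25.6%), 26 in cycling-gated cells (background 24.8%) and 41 in goblet-gated cells (background 23.6%), with medians of -0.91, -0.40 and -0.74. The 1 nuclear member higher in each of these gates (background 16.5% in goblet-, 18.3% in stem- and 16.4% in cycling-gated cells) was Ndufa4, at 325 CPM in colonocyte-gated, 564 CPM in goblet-gated, 506 CPM in stem-gated and 692 CPM in cycling-gated germ-free cells. In antibiotic cells its levels were 310, 451, 172 and 208 CPM in the same order. The conditions have 3 and 2 cell sets, so that separation is easier to reach in germ-free cells.

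The ratio of mitochondrial to nuclear UMI combined these levels. In antibiotic sets it was 2.24, 1.80 and 1.87 in colonocyte-gated, 3.403, 3.18 and 2.83 in goblet-gated, 8.74, 4.21 and 8.12 in cycling-gated and 12.02, 10.2 and 10.7 in stem-gated cells. In germ-free sets 3 and 4 it was 4.37 and 4.12, 5.16 and 4.23, 5.24 and 5.79, and 5.80 and 8.74. Deep crypt secretory cells, with 11 to 19 cells a set, had 1.41, 1.76 and 1.07 in antibiotic and 3.64 and 2.20 in germ-free sets. Of these 5 gates, deep crypt secretory cells had the lowest ratio in each set, colonocyte-gated cells the next and stem-gated cells the highest. The distance from colonocytes to deep crypt secretory cells was -0.67, -0.03 and -0.81 on the log2 scale in antibiotic sets, and -0.26 and -0.90 in germ-free sets, so that in antibiotic set 2 they were within counting error. Their mitochondrial share lay below that of colonocytes, by a log2 difference of -0.94 in antibiotic and -1.21 in germ-free cells, and their nuclear share by -0.46 and -0.45. Between conditions, their ratio went from 1.38 to 2.46 with sets apart. Other neighbours in that order came close in germ-free set 3, where goblet-, cycling- and stem-gated cells lay between 5.16 and 5.80, and in germ-free set 4, where goblet- and colonocyte-gated cells were at 4.23 and 4.12. The log2 distance from colonocyte- to stem-gated cells was 2.43, 2.50 and 2.51 in antibiotic sets and 0.41 and 1.09 in germ-free sets. With the gate limits doubled, it was 3.56 for antibiotic and 2.21 for germ-free cells.

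**Figure D4:**
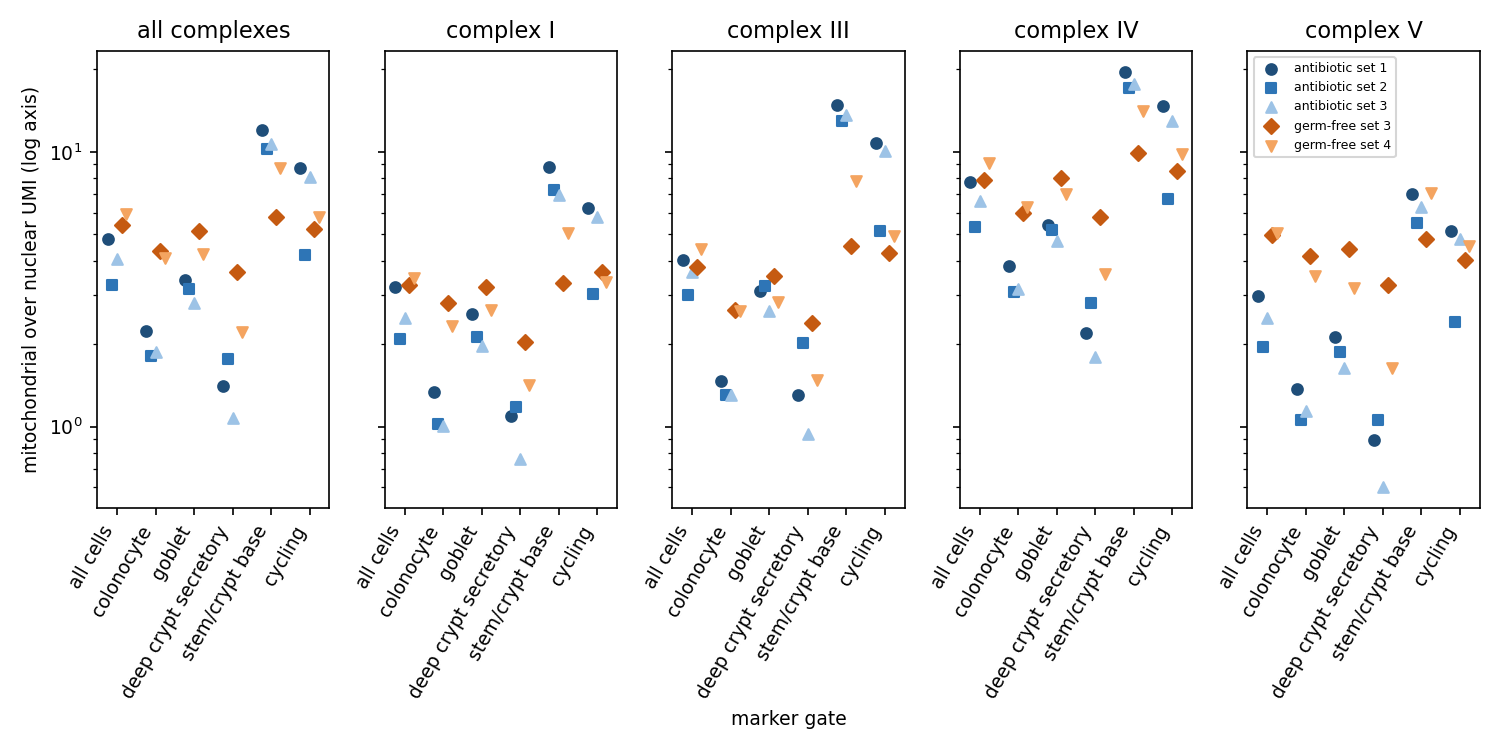
Mitochondrial over nuclear UMI of the members in all cells and in each gate, on a log axis, over all members and by complex; each point is 1 cell set, coloured by condition. Over all members, germ-free points lie above antibiotic points in colonocyte-gated cells (4.12 and 4.37 against 1.80 to 2.24) and below them in stem-gated cells (5.80 and 8.74 against 10.2 to 12.02).

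Compared between conditions within a gate, the 2 genomes parted differently in colonocytes than in crypt base cells. In colonocyte-gated cells 9 of 13 mitochondrial members were higher and 1, mt-Atp8, lower in germ-free cells (background 17.5% higher and 10.2% lower), whereas 0 of 73 nuclear members were higher and 9 were lower. The nuclear median was -0.25, against 0.15 over all genes, and the 9 lower members were near the background. With at least 1000 UMI and at most 20% mitochondrial UMI per cell, 2 were higher and 5 lower (background 18.5% and 9.19%). The nuclear median was then -0.05, against 0.20 over all genes. Scaled without mitochondrial genes, 1 was higher and 7 lower (background 24% and 7.52%), with a median of -0.13 against 0.28. Without antibiotic set 1 the nuclear counts were 1 higher and 16 lower (background 10.9% lower), and without germ-free set 4 they were 8 and 25 (background 32.8% higher and 24.1% lower). In stem-gated cells 57 of 72 nuclear members were higher and 0 lower (background 10.3% higher), with a median of 0.96 against -0.19 over all genes. In cycling-gated cells 37 of 72 were higher and 0 lower (background 8.42%), with a median of 0.78. Goblet-gated cells had 0 of 72 higher and 5 lower (background 8.06% and 8.74%), with a median of -0.06. This gate's result turned with the choice of cells: without cells in 2 gates 13 of 46 were higher and 0 lower (background 9.69% and 15.5%, median 0.48), with the gate limits doubled 0 of 71 were higher and 22 lower (background 15.3% and 14.1%, median -0.38), and with each cell counted equally 12 were higher and 6 lower (background 12.6% for each). Without germ-free set 4 the counts were 11 and 20 of 72, close to the background of 17.6% and 27.2%.

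The stem-gate difference ran through every complex: 27 of 36 nuclear members of complex I, 6 of 8 of complex III, all 11 of complex IV and 13 of 17 of complex V were higher in germ-free cells. Cox5a ranged over 146 to 186 CPM in the antibiotic sets and 656 to 768 CPM in the germ-free sets, and Ndufa4 over 131 to 212 CPM against 480 to 745 CPM. Atp5a1 ranged over 268 to 277 CPM against 518 to 582 CPM, and Uqcrh over 199 to 305 CPM against 652 to 666 CPM. None of these overlapped, but germ-free set 3 held only 25 stem-gated cells, with a median of 1524 UMI. Germ-free set 4 held 70, with a median of 4340 UMI. Ndufa3, at 141 and 134 CPM, and Uqcrc1, at 107 and 104 CPM, did not share the shift. Among mitochondrial members in stem-gated cells, mt-Nd1, mt-Co2, mt-Atp6, mt-Co3 and mt-Nd6 were higher, and mt-Atp8 and mt-Nd4l lower, in germ-free cells.

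The count in stem-gated cells was 53 to 58 of 69 to 72 with any 1 cell set left out (background 10.8% to 19.9%, highest without germ-free set 4). It was 32 of 62 (background 8.02%) when cells in 2 gates were left out and 23 of 32 (background 9.29%) with the gate limit doubled. In cycling-gated cells these counts were 31 to 52 of 70 to 72 (background 7.38% to 19.4%, highest without germ-free set 4), 23 of 72 (background 7.38%) and 10 of 69 (background 4.56%). Germ-free sets 3 and 4 held 17 and 41 cycling-gated cells. Other RNA moved with the nuclear members in these gates: the median share of cytosolic ribosomal protein genes was 2.32% of non-mitochondrial UMI in stem-gated antibiotic and 7.97% in stem-gated germ-free cells, 2.88% and 8.38% in cycling-gated cells, and 3.32% and 4.96% in colonocyte-gated cells. The genes Gm42418, AY036118 and Lars2, which collect ribosomal RNA reads, took 10.1% and 5.61% in stem-gated cells and 9.54% and 4.04% in colonocyte-gated cells. Median UMI per stem-gated cell was 5698 and 3358. The part of these in the result was not tested.

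Single cells showed how the low nuclear share was distributed. The median share of nuclear members in a cell's non-mitochondrial UMI was 1.07%, 1.43% and 1.29% in the antibiotic sets and 3.39% and 2.79% in the germ-free sets. Of antibiotic cells, 1368 of 3415 (40.1%) had a share under 1%, and of germ-free cells 28 of 768 (3.65%). In stem-gated cells the numbers were 193 of 256 (75.4%) and 2 of 95 (2.11%), in cycling-gated cells 110 of 189 (58.2%) and 0 of 58, in goblet-gated cells 70 of 128 (54.7%) and 10 of 86 (11.6%), and in colonocyte-gated cells 28 of 845 (3.31%) and 3 of 188 (1.60%). Median shares were 4.36% and 4.51% in antibiotic and germ-free colonocyte-gated cells, and 0.70% and 2.27% in stem-gated cells. Without the shallower barcode copies 1073 of 2578 antibiotic cells (41.6%) were under 1%. With cells thinned to 1000 UMI, which left out 524 antibiotic and 143 germ-free cells, it was 1111 of 2891 (38.4%) and 18 of 625 (2.88%), and in stem-gated cells 174 of 240 (72.5%) and 3 of 88 (3.41%). Of the 1368 antibiotic cells with a share under 1%, 28 were in the colonocyte gate. Across cells with at least 1000 UMI, this share and the ribosomal protein share had Spearman coefficients of 0.68, 0.74 and 0.73 in antibiotic sets and 0.35 and 0.55 in germ-free sets; both are shares of the same UMI total.

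**Figure D5:**
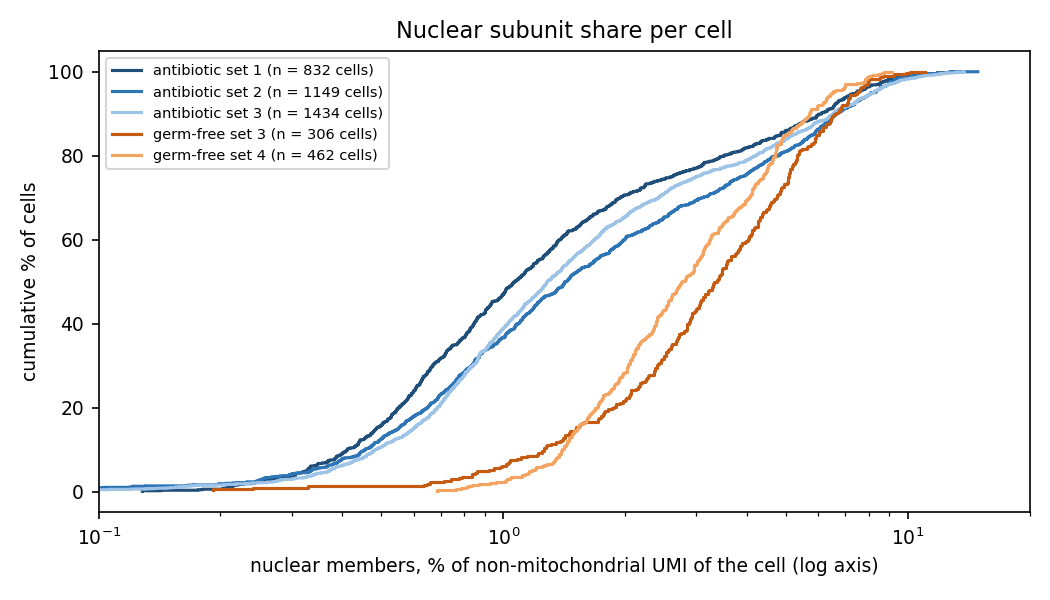
Cumulative percentage of cells (vertical axis) by the share of the nuclear members in a cell's non-mitochondrial UMI (horizontal log axis, in percent), with 1 line per cell set. The antibiotic lines cross 1% with many cells already counted, 40.1% over the condition, and the germ-free lines with few, 3.65%.

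Other genes of the pathway, taken from lists of related genes, were compared in the summed cells. Of 8 ranked genes of complex II and the electron carriers, 0 were higher and 1 was lower (background 6.72% and 6.28%). The lower gene, Cycs, cytochrome c, had 405, 553 and 474 CPM in the antibiotic sets, against 345 and 242 CPM, 1.90-fold lower. The complex II subunits Sdha (155 and 196 CPM) and Sdhb (261 and 222 CPM) and the electron transfer flavoprotein Etfb (191 and 172 CPM) did not reach the limit. Of 25 ranked assembly factors, 1 was higher and 2 lower, near the same background of 6.72% and 6.28%. Taco1, which activates translation of mt-Co1, had 188, 174 and 179 CPM against 9.93 and 37.4 CPM, 5.30-fold lower, and Pet100, a complex IV assembly factor, went from 90.7 to 42.6 CPM. Coa6 went from 18.3 to 30.6 CPM. The 4 most abundant ranked assembly factors had overlapping sets: Cox17 at 207 and 174 CPM, Cox16 at 156 and 167 CPM, Coa3 at 126 and 130 CPM and Cox14 at 122 and 126 CPM.

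Of 12 ranked genes of mitochondrial genome expression, 1 was higher and 0 lower (background 6.72% and 6.28%). The higher gene, Tfam, which packages mitochondrial DNA and starts its transcription, had 21.5, 23.7 and 17.8 CPM against 67.0 and 35.6 CPM, 1.93-fold higher. The 4 most abundant of the list had overlapping sets, at 59.0 and 69.0 CPM for Slirp, 53.5 and 61.3 CPM for Hsd17b10, 43.8 and 57.1 CPM for Lrpprc and 38.1 and 42.9 CPM for Ssbp1. Of 11 ranked regulators, 1 was higher and 1 lower (background 6.72% and 6.28%). The coactivator Ppargc1a was higher (147 to 233 CPM, 1.59-fold) and its partner Esrra lower (91.5 to 59.0 CPM, 1.55-fold). No call was reached by Esrrg (267 and 202 CPM), Hif1a (163 and 127 CPM) or Ppargc1b (152 and 150 CPM). Of 69 ranked mitochondrial ribosome genes, 10 were higher and 0 lower (background 6.72% and 6.28%), with a median log2 ratio of 0.24 against 0.05 over all genes. Examples are Mrpl20 (59.8 to 106 CPM) and Mrps14 (52.5 to 86.4 CPM). Of the 4 most abundant, Mrpl51 (90.2 and 136 CPM) had sets apart just under the limit, which is set on CPM + 1. Mrpl52 (141 and 123 CPM), Mrpl12 (133 and 141 CPM) and Mrps21 (116 and 89.97 CPM) had overlapping sets. Taco1, Pet100, Coa6, Tfam, Esrra, Mrpl20 and Mrps14 were chosen for naming after their values were seen.

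Gene length was set beside the ratios, as a feature the naming rule did not use. Over 72 nuclear members with an annotated transcript, Spearman's coefficient between the log2 ratio and transcript length was 0.28, and over 6303 genes it was 0.03. Of the 24 shortest (371 to 659 bases) 8 lay above 0, of the next 24 (659 to 1046 bases) 17, and of the 24 longest (1076 to 4715 bases) 14. The members share 1 genome, 1 set of libraries and their depth, so this is a description of these genes.

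Promoter windows of 300 bases (RefSeq, GRCm38.p6; 250 bases before to 50 after the start) matched 65 nuclear members. Motifs were searched on both strands. The NRF1 motif GCATGCGC was in 9 of them (13.8%, against 2.80% of 27025 promoters), the ETS motif CCGGAAG in 14 (21.5%, against 9.12%), the YY1 motif AAGATGGCG in 6 (9.23%, against 1.49%) and the ERR motif TGACCTTG in 3 (4.62%, against 1.53%). The 9 NRF1 genes were Ndufa8, Atp5k, Cox6a1, Atp5l, Uqcrc1, Uqcr11, Ndufa6, Atp5g2 and Ndufa11, with a median log2 ratio of -0.20, against 0.03 for the other 53 ranked members. The strings were shortened after the values were seen: a first search with NRF1 and YY1 strings that were 2 bases longer matched 5 and 4 members, and the 5 NRF1 genes then had a median of -0.44. Atp5k, Cox6a1, Atp5l and Uqcr11 hold both an NRF1 and an ETS match. The windows of 3 of these, all on the minus strand, are printed: Atp5k (chr5:108434350-108434649), Cox6a1 (chr5:115348909-115349208) and Atp5l (chr9:44920693-44920992). Beside them stand those of Ndufa4 (chr6:11907401-11907700, minus strand) and Ndufa3 (chr7:3617123-3617422, plus strand), the nuclear members with the highest and the lowest log2 ratio, which hold none of the 4 strings. Capitals mark the NRF1 matches, which in Atp5k and Cox6a1 occur on both strands and overlap, the ETS matches as their complement CTTCCGG, and the ERR match of Atp5l.
Atp5k: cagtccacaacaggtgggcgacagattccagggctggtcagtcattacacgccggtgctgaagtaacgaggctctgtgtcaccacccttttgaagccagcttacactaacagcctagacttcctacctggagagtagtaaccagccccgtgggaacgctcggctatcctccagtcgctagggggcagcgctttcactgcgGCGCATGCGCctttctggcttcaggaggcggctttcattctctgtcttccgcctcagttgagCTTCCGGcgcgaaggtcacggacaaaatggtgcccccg
Cox6a1: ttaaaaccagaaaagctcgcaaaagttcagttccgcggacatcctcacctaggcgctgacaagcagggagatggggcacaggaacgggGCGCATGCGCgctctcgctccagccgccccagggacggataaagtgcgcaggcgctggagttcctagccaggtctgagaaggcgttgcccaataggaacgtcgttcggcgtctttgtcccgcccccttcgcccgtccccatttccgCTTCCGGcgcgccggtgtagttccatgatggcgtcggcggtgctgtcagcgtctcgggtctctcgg
Atp5l: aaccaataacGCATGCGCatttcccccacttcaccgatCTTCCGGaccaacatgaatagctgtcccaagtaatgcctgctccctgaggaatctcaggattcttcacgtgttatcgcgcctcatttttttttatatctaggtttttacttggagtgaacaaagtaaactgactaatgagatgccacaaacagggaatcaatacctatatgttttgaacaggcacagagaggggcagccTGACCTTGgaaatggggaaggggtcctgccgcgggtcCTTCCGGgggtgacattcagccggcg
Ndufa4: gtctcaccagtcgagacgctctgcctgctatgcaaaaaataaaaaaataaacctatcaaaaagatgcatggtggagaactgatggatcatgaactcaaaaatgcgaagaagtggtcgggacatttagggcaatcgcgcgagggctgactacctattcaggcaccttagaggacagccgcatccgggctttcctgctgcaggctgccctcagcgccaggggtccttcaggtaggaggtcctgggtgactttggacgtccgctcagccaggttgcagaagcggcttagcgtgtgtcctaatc
Ndufa3: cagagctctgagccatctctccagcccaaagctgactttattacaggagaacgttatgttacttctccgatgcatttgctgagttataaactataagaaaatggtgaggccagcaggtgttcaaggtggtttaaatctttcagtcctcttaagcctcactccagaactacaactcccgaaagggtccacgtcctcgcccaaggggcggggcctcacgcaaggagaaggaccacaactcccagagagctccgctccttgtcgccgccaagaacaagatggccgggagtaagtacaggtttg
A match is a string of letters in this window and not a binding site. The CPM values in antibiotic and germ-free cells were 604 and 392 for Atp5k, 803 and 583 for Cox6a1 and 551 and 675 for Atp5l. They were 244 and 437 for Ndufa4 and 384 and 188 for Ndufa3. Since Ndufa4 and Ndufa3 were picked as the extremes of the ratios, the printed windows cannot show whether the strings go with a direction.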

How the data were processed

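The authors deposited a matrix of 32285 genes in 4183 cells whose values, judged from the values themselves, are the natural log of UMI per 10000 UMI of the cell, plus 1. Whole UMI were recovered for 100% of 9481333 nonzero values (tolerance 0.01), summed, and scaled to CPM. Per the submitters' processing notes, Cell Ranger 7.0.0, kallisto, bustools and mm10 were used, with no roles given; filters on cells, treatment of doublets and strand use are not stated there, and no doublet caller was run. The 8 sample barcode libraries were not analysed here. The planned count tests need separate libraries, which the files do not map, so the conditions are compared as 1 pool each, with no test.

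Log2 ratios are of CPM + 1. Intervals are exact Poisson for CPM, conditional binomial for ratios and Clopper-Pearson for shares, at 95%, and cover counting error only. The members and lists were chosen with earlier results of these data known. Named were all mitochondrial members, the 3 most abundant and the 2 most changed in each direction among nuclear members of each complex, listed isoforms, and the 4 most abundant genes of each list. Scripts ran in Python 3.11.15 with SciPy 1.17.1, NumPy 2.4.6 and pandas 2.3.3; matplotlib 3.10.9 drew the plots. The calling rule was also run on simulated counts drawn from a shared profile with counting error only. That run cannot show how often differences between cell sets, batches or mice would pass the rule. Alternatives covered thinning, equal cell weights, scaling, fold limits, depth and mitochondrial limits, gates, and each cell set left out.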

Additional observations from a re-analysis of the deposited data

Results flagged for a closer look

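Over all members and for complexes I, III and IV, in colonocyte-gated and stem-gated cells every germ-free cell set moved away from the antibiotic sets in opposite directions for the ratio of mitochondrial to nuclear UMI. The log2 difference, germ-free minus antibiotic, was 1.11 in colonocyte-gated and -0.36 in stem-gated cells over all members. For complex I it was 1.14 and -0.62, for complex III 0.98 and -0.87, and for complex IV 0.94 and -0.40. For complex III the cycling-gated cells also moved opposite to colonocyte-gated cells, at -0.70. Complex V did not share this: it was 1.65 in colonocyte-gated and 0.14, with overlapping sets, in stem-gated cells. Over all members, the mitochondrial share of UMI was higher in germ-free cells in both gates, by log2 differences of 0.84 (colonocyte) and 0.61 (stem). The nuclear share differed by -0.27 and 0.98. The difference between the gates was not tested, since each condition was 1 pool.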

How the results depend on the processing

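No paired analysis was possible because the antibiotic and germ-free libraries share no replicate numbers, the cell columns carry none, and no result comes from a test. Leaving out 1 cell set at a time gave a nuclear median log2 ratio of -0.0215 to 0.14, a mitochondrial share difference of 0.56 to 0.62, and mitochondrial over nuclear differences of 0.35 to 0.58 (complex I), 0.13 to 0.37 (III), 0.32 to 0.57 (IV) and 0.94 to 1.17 (V). It gave 2 to 14 nuclear members higher and 2 to 13 lower, and the shares over all genes were not computed for these counts. Gate minus colonocyte log2 ratios, antibiotic then germ-free, were 2.48 to 2.50 and 0.41 to 1.09 (stem), 1.54 to 2.08 and 0.26 to 0.49 (cycling), and 0.61 to 0.73 and 0.0388 to 0.24 (goblet). The stem and cycling counts were 53 to 58 (background 10.8% to 19.9%) and 31 to 52 (background 7.38% to 19.4%).

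The nuclear median was -0.0537 without Gm42418, AY036118 and Lars2 and -0.0207 with median-of-ratios scaling. The all-gene medians were then -0.0362 and 0. Nuclear minus all-gene medians were -0.0176 and -0.0207, against -0.0202 in the main setting. The nuclear median moved to 0.35 (thinned) and 0.31 (per cell), against all-gene medians of -0.01 and 0.03. The mitochondrial share difference was 0.40 with at most 20% mitochondrial UMI per cell, 0.51 thinned and 0.51 without those 3 genes. Complex I was 0.0215 thinned and 0.11 per cell. Complex III turned to -0.0440 (20% limit), -0.16 (thinned), -0.0678 (per cell) and -0.0260 (gates weighted equally). Complex IV was 0.0572 thinned and 0.13 per cell, and complex V 0.77 (20% limit) and 0.68 (thinned). Nuclear members higher and lower were 6 and 2 (20% limit), 21 and 0 (thinned), 20 and 1 (per cell), 8 and 1 (gates equal), 6 and 1 (non-mitochondrial scaling), 0 and 1 (2-fold limit) and 14 and 8 (a looser fold limit). The shares of all genes past the limit were not computed for these counts, and the cause of the shifts under these settings was not tested.

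Gate minus colonocyte values that moved in antibiotic cells were 1.33 thinned, 1.27 per cell and 1.74 without cells in 2 gates (goblet), 2.28 (20% limit), 2.73 (thinned), 2.69 (per cell), 3.56 (limits doubled) and 2.39 (without cells in 2 gates) for stem, and 2.28 (limits doubled) for cycling. In germ-free cells they were 0.31 (20% limit), 0.30 (thinned), 0.36 (per cell), 0.67 (doubled) and 0.52 (without cells in 2 gates) for goblet, 2.21 (doubled) for stem, and 0.84 (thinned), 0.73 (per cell) and 1.69 (doubled) for cycling. Nuclear members higher within the stem gate were 5 of 6 with enough UMI after thinning (background 29.6%). They were 23 of 32 with limits doubled (background 9.29%) and 32 of 62 without cells in 2 gates (background 8.02%). In the cycling gate they were 3 of 4 with enough UMI after thinning (background 34.6%), 10 of 69 (background 4.56%) and 23 of 72 (background 7.38%). Depth limits germ-free set 3, where 3 UMI equal 7.44 CPM.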
